A study of Mus musculus with 12 samples.

Results

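The 10 genes described here encode the protein complexes that start an autophagosome, and they were taken by symbol from a table of 12960 genes. The ULK1 complex is represented by Ulk1, Ulk2, Atg13, Atg101 and Rb1cc1, and the VPS34 complexes by Becn1, Pik3c3, Pik3r4, Atg14 and Uvrag. All 10 symbols were in the table, and all 10 passed the filter on low counts that left 10822 genes for testing.

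Autophagy encloses cytoplasm in a double membrane and delivers it to the lysosome. The ULK1 kinase complex receives the signal to start, since AMPK and mTORC1 both phosphorylate ULK1, and it then activates the VPS34 complex, a lipid kinase that makes phosphatidylinositol 3-phosphate on the forming membrane. In macrophages the same machinery handles damaged organelles, intracellular bacteria and lipid droplets. These proteins are controlled largely by phosphorylation and binding, which transcript counts do not measure.

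Transcripts were counted in bone marrow-derived macrophages (BMDMs), primary mouse cells grown from marrow in L929-conditioned medium, which supplies M-CSF. Wildtype (WT) cells and cells of AMPK B1 KO mice, which lack AMPKβ1 in the whole body and are called AMPKβ1-/- here, received PF-06409577 (PF), an activator of AMPK complexes containing the β1 subunit, at 10 μM or 0.1% DMSO as vehicle for 6 h. The design gave 4 groups of 3 libraries, 12 in all, and asked what AMPK activation does to metabolism and inflammation in macrophages. The sources used here tie no sex or age to these cells and do not say whether the 3 libraries of a group came from separate animals, so p-values measure only the spread between these libraries. Marrow of a whole-body knockout also develops without the subunit, so a genotype difference is not an effect of acute loss.

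Library totals ran from 8935609 to 14358180 estimated counts. Prkab1, the gene of AMPKβ1, had 43.4 to 45.3 CPM (counts scaled to library depth) in WT vehicle libraries and 6.05 to 8.39 CPM in AMPKβ1-/- vehicle libraries, a log2 fold change of -2.57 (SE 0.12, edgeR adjusted p = 8.85e-09). The summed level of 10 macrophage markers, all in the table, was 25961 to 30785 CPM in every group. Of the lists for other cells, 6 of 10 granulocyte, 3 of 5 dendritic, 6 of 7 stromal, 1 of 4 erythroid and 1 of 4 mast cell markers were in the table, with sums of at most 1.74, 1.28, 9.03, 1.09 and 4.02 CPM. The 2 of 8 lymphoid markers in the table, Cd3d and Cd4, summed to 12.7 to 14.2 CPM in WT and 5.65 to 6.58 CPM in AMPKβ1-/- libraries, and their part in the genotype differences was not tested. In bulk RNA a lower level cannot be told apart as fewer cells of a type or as less RNA per cell.

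The base composition of a transcript went with its fold change in this series, so stretches of 4 members are shown first. Rb1cc1 and Atg101 are the members that passed the test for PF, and Ulk2 and Ulk1 are the paired kinases of the complex. Each line gives the middle 90 bases of the longest coding stretch within 1 exon of the longest coding transcript, from GENCODE M21 on GRCm38, 5′ to 3′ along the transcript, with G and C in capitals.
Rb1cc1: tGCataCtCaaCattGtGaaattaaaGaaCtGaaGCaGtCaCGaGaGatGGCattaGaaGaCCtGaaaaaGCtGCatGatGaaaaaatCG
Atg101: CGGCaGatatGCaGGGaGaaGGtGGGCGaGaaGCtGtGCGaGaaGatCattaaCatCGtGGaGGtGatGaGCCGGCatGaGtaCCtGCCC
Ulk2: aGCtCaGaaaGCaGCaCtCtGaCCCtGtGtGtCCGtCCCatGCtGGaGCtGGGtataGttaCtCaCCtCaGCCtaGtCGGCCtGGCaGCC
Ulk1: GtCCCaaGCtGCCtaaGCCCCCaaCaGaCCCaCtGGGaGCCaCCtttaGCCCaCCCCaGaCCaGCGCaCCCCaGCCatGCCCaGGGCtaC
The Rb1cc1 stretch (chr1:6249177-6249266, plus strand, exon 15 of 24) holds 34 G or C bases of 90, which is 37.8%. The Atg101 stretch (chr15:101290424-101290513, plus strand, exon 3 of 3) holds 56.7%, the Ulk2 stretch (chr11:61800000-61800089, minus strand, exon 18 of 27) 58.9%, and the Ulk1 stretch (chr5:110790301-110790390, minus strand, exon 19 of 28) 66.7%. Over whole transcripts the GC content was 39.1% for Rb1cc1, 47.0% for Ulk2, 58.0% for Ulk1 and 58.0% for Atg101. The Ulk2 and Ulk1 stretches are thus richer in GC than their transcripts, and the Ulk2 stretch does not represent its transcript. Fold changes are set against whole transcripts below. Rb1cc1 was the most AT-rich of the 10 members.

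Divided by the length of the longest coding transcript, the members covered a wide range of levels in WT vehicle cells. Atg101 was highest at 46.3 ± 2.61 CPM per kb (SD, n = 3), followed by Atg13 at 29.9 ± 0.72 and Becn1 at 23.9 ± 0.63. Uvrag, Ulk1, Pik3c3 and Pik3r4 came next at 19.7, 19.1, 17.2 and 16.1 CPM per kb. The libraries of Ulk1 overlapped those of the other 3 in this middle group, and those of Pik3c3 and Pik3r4 overlapped each other, whereas every Uvrag library was above every Pik3c3 and Pik3r4 library. Atg14 at 9.09 ± 0.43 and Ulk2 at 5.80 ± 0.79 CPM per kb were lower, and Rb1cc1 was lowest at 0.340 ± 0.095 CPM per kb. Apart from these, no neighbours in this order overlapped. Overlap between libraries does not measure bias between genes, and these levels were not corrected for GC content. Atg101 and Rb1cc1, the highest and the lowest, had 58.0% and 39.1% GC, and the part of GC content in this order was not tested. In AMPKβ1-/- cells on PF, Rb1cc1 reached 2.52 ± 0.32 CPM per kb and was still the lowest of the 10.

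**Figure D1:**
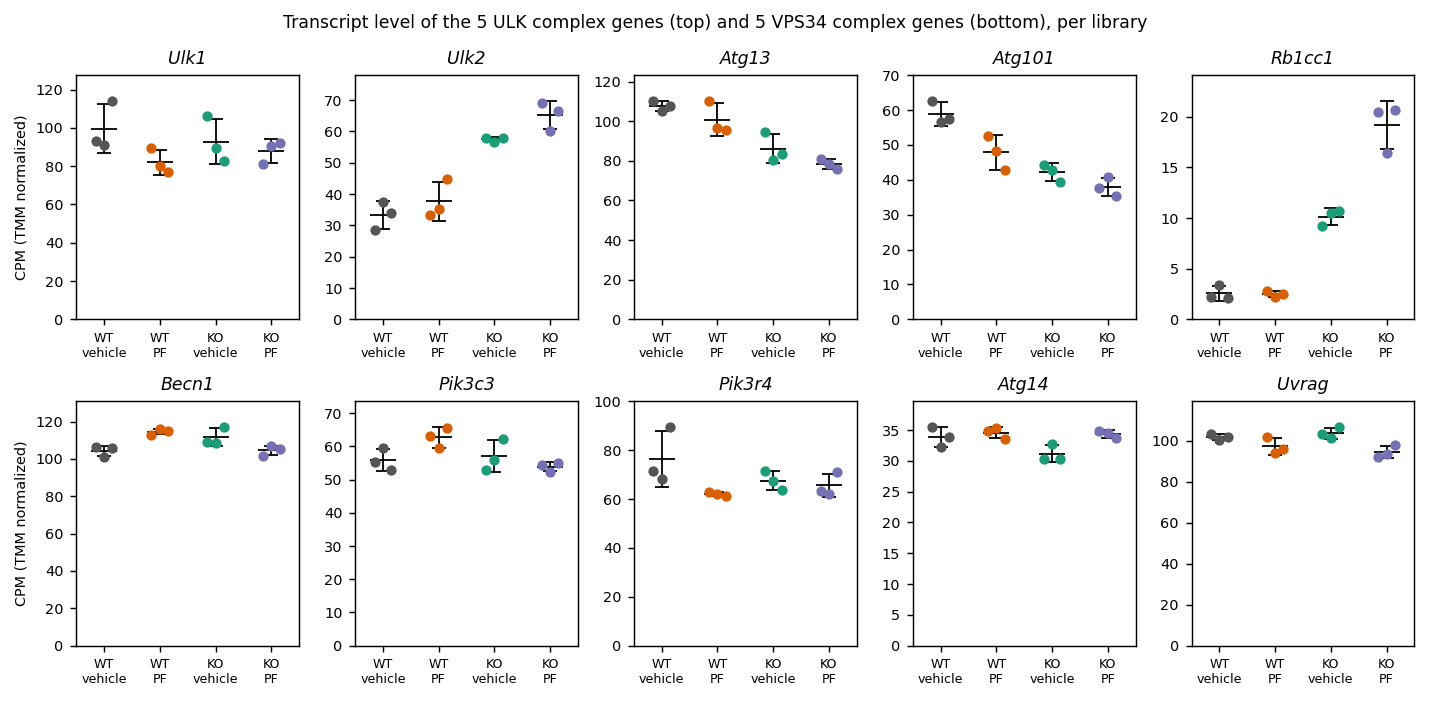
Level of each initiation gene in CPM (TMM normalized) in the 12 libraries, with 1 panel per gene and a y axis from 0; points are libraries, and bars are the mean ± SD of 3. Rb1cc1 rises from a mean of 2.58 CPM in WT vehicle to 10.1 CPM in AMPKβ1-/- vehicle and 19.2 CPM in AMPKβ1-/- PF libraries. The VPS34 genes vary less in proportion than Rb1cc1, although Pik3r4 libraries run from 61.2 to 89.5 CPM.

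In each genotype 1 of the 10 genes was called for PF. In WT cells 1 of 10 passed an adjusted p of 0.05, namely Atg101, which was lower, where 8.95% of all tested genes were called lower and 6.99% higher. Genes with a log2 change beyond 0.8 as well made up 1.52% of those tested and included none of the 10. In AMPKβ1-/- cells Rb1cc1 was called higher, 1 of only 6 such genes or 0.0554% of those tested, and by the stricter rule with the 0.8 limit the share was again 0.0554%. No gene was called lower there (0%), although edgeR gave 75 genes an unadjusted p below 0.05 in that direction, none of them among the 10. The median size of the 10 log2 changes was 0.15 in WT, against 0.23 over all tested genes, and 0.13 in AMPKβ1-/- cells, against 0.090.

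More of the 10 were called for genotype than for PF, as were more of all tested genes. In vehicle-treated AMPKβ1-/- cells 2 of 10, Rb1cc1 and Ulk2, were higher, where 29.7% of all tested genes were, and 2 of 10, Atg101 and Atg13, were lower, where 30% were. Rb1cc1 alone changed by more than 0.8 on the log2 scale, against 17.8% of all genes. These 4 are ULK1 complex genes, but a difference between the complexes was not tested and the calls changed with the processing. When each library's trend in GC content and transcript length was removed by an offset, only Ulk2 and the VPS34 gene Becn1 (-0.48, edgeR adjusted p = 0.00176) were called. With scaling to library size alone, which moved the median of all genes by 0.21, Becn1, Pik3c3 and Uvrag also passed. Of all tested genes 34.2% were called with the offset, and at most 61% in any alternative. The members' count was below the background, and their median change of 0.15 in size compares with 0.40 over all tested genes.

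**Figure D2:**
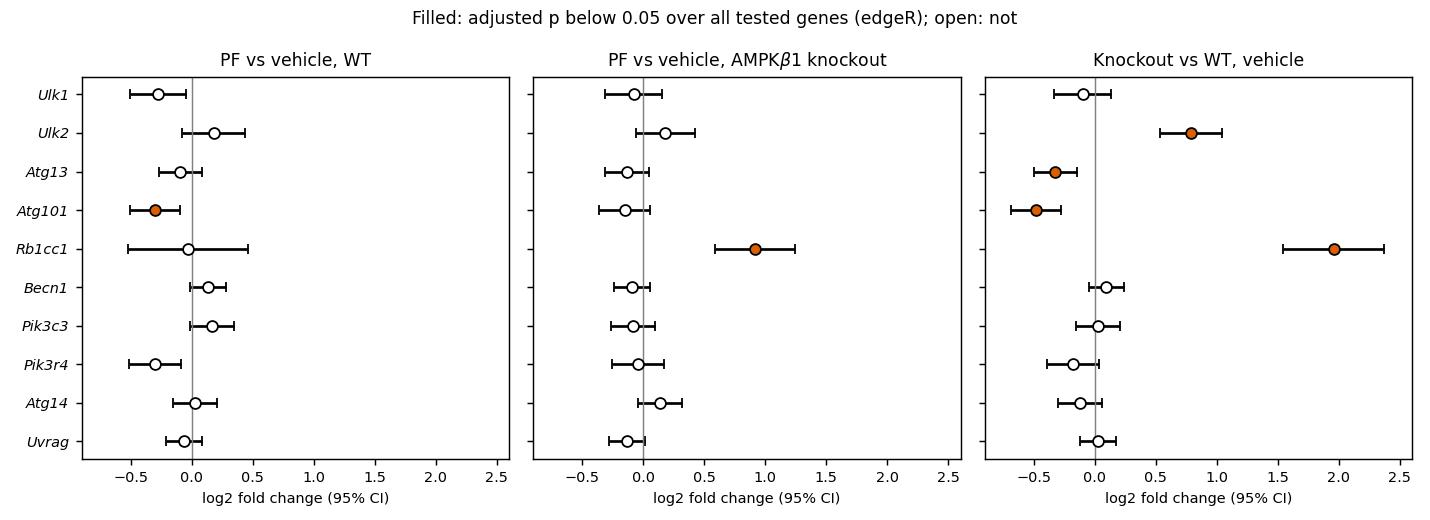
Log2 fold change (x axis) with its approximate 95% confidence interval for the 10 genes (y axis) in 3 comparisons; filled points passed an adjusted p of 0.05 over all tested genes. Only Atg101 is filled for PF in WT, only Rb1cc1 for PF in AMPKβ1-/- cells, and Ulk2, Atg13, Atg101 and Rb1cc1 for genotype.

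Ulk1 encodes the kinase at the head of the pathway and lies on chr5:110784488-110810097 of GRCm38. It was at 93.2, 91.0 and 114 CPM in the 3 WT vehicle libraries and at 89.4, 80.1 and 76.9 CPM in the 3 WT PF libraries. AMPKβ1-/- cells had 106, 89.5 and 82.9 CPM on vehicle and 80.9, 90.8 and 92.0 CPM on PF. Every WT PF library was below every WT vehicle library, by a narrow margin, and the AMPKβ1-/- libraries overlapped. The log2 change with PF was -0.28 (SE 0.11) in WT, with an unadjusted p of 0.0228 and an edgeR adjusted p of 0.0889. The corresponding value in AMPKβ1-/- cells was -0.079 (SE 0.11, adjusted p = 0.982). Leaving out WT PF replicate 1 took the WT adjusted p to 0.0413, and no other single library did so.

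Ulk2, the second ULK kinase, with a role partly shared with ULK1, lies on chr11:61775649-61855073. It was at 28.4, 37.4 and 34.0 CPM in WT vehicle and at 33.2, 35.1 and 44.7 CPM in WT PF libraries. In AMPKβ1-/- cells it was at 57.9, 56.7 and 57.9 CPM on vehicle and at 69.1, 60.2 and 66.4 CPM on PF. All 6 AMPKβ1-/- libraries lay above all 6 WT libraries. The genotype difference on vehicle was 0.79 on the log2 scale, or 1.72-fold (SE 0.12, edgeR adjusted p = 0.000118). PF gave 0.18 in both genotypes (SE 0.12 and 0.11, adjusted p = 0.294 and 0.982), with overlap in WT and none in AMPKβ1-/- cells.

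The ratio of Ulk2 to Ulk1 counts within a library is free of the scaling factor but not of the library's GC trend, since their GC contents differ (47.0% and 58.0%). It was 0.338 ± 0.063 in WT vehicle, 0.464 ± 0.108 in WT PF, 0.626 ± 0.077 in AMPKβ1-/- vehicle and 0.746 ± 0.097 in AMPKβ1-/- PF libraries (SD, n = 3). On vehicle the lowest AMPKβ1-/- library, at 0.546, was above the highest WT library, at 0.411. The ranges for vehicle and PF overlapped in both genotypes. With the GC and length offset the genotype change of Ulk2 went from 0.79 to 0.38 and that of Ulk1 from -0.10 to 0.13.

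Atg13, on chr2:91674618-91710576, encodes the adaptor through which ULK1 binds the rest of the complex. It was at 110, 105 and 107 CPM in WT vehicle, and at 110, 96.5 and 95.6 CPM in WT PF libraries. AMPKβ1-/- vehicle libraries had 94.4, 80.4 and 83.4 CPM, and AMPKβ1-/- PF libraries 80.8, 78.5 and 75.8 CPM. No AMPKβ1-/- vehicle library reached the WT vehicle range, whereas PF and vehicle overlapped in both genotypes. The genotype change was -0.32 (SE 0.084, edgeR adjusted p = 0.00395). With PF it was -0.094 in WT (SE 0.083, adjusted p = 0.425) and -0.13 in AMPKβ1-/- cells (SE 0.084, adjusted p = 0.982).

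Atg101, which stabilises ATG13, lies on chr15:101284272-101290945. WT vehicle libraries had 62.6, 56.6 and 57.3 CPM and WT PF libraries 52.6, 48.3 and 42.7 CPM. AMPKβ1-/- cells had 44.3, 42.8 and 39.3 CPM on vehicle and 37.5, 40.8 and 35.4 CPM on PF. The WT groups did not overlap, and neither did the vehicle groups of the 2 genotypes. PF lowered it by a log2 change of -0.30 in WT cells (SE 0.096, edgeR adjusted p = 0.0461), and in AMPKβ1-/- cells the value was -0.15 (SE 0.098, adjusted p = 0.982). The difference between these responses, -0.15 (SE 0.14), had an adjusted p of 0.64. The genotype change on vehicle was -0.48 (SE 0.097, adjusted p = 0.000703).

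The WT call of Atg101 sat at the threshold. It was lost without WT vehicle replicate 1 (adjusted p = 0.15) or 3 (0.0823), without WT PF replicate 2 (0.109) or 3 (0.227), without AMPKβ1-/- vehicle replicate 2 (0.0635) or 3 (0.0565), and without AMPKβ1-/- PF replicate 1, 2 or 3 (0.0649, 0.0567 and 0.0592). DESeq2 gave an adjusted p of 0.0514, while limma-voom and the fit with a replicate block kept the call. Over all fits the log2 change ran from -0.37 to -0.13, with a decrease in each.

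Rb1cc1, on chr1:6206197-6276648, encodes FIP200, the large scaffold on which the complex assembles, and it stood apart from the other 9. Its estimated counts were 21, 37 and 21 in WT vehicle and 33, 24 and 33 in WT PF libraries. In AMPKβ1-/- cells they were 101, 161 and 101 on vehicle and 235, 209 and 222 on PF. In CPM the same libraries read 2.25, 3.42, 2.09, then 2.83, 2.25, 2.54, then 9.21, 10.5, 10.7, and then 20.5, 16.4, 20.6. The 6 WT libraries overlapped regardless of treatment, all AMPKβ1-/- vehicle libraries were above them, and all AMPKβ1-/- PF libraries were higher again.

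The genotype change of Rb1cc1 on vehicle was 1.96 on the log2 scale, or 3.88-fold (SE 0.19, 95% interval 1.54 to 2.37, edgeR adjusted p = 1.12e-05). PF raised it by 0.92 in AMPKβ1-/- cells, or 1.89-fold (SE 0.15, interval 0.59 to 1.24, adjusted p = 0.0414). In WT cells the change was -0.033 (SE 0.23, interval -0.52 to 0.46, adjusted p = 0.926). The test of the difference, WT minus AMPKβ1-/- response, gave -0.95 (SE 0.28), with an unadjusted p of 0.00372 and an adjusted p of 0.15. The WT and AMPKβ1-/- responses were therefore not shown to differ after adjustment. Its ratio to Atg13 counts was 0.0241 ± 0.0073, 0.0252 ± 0.0017, 0.119 ± 0.019 and 0.245 ± 0.033 in the order above (SD, n = 3). That ratio is not free of the library's GC trend, since the GC contents of Rb1cc1 and Atg13 differ (39.1% and 52.8%).

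The call for PF in AMPKβ1-/- cells also depended on single libraries. The adjusted p of Rb1cc1 rose to 0.25, 0.177 and 0.141 without AMPKβ1-/- vehicle replicate 1, 2 or 3, to 0.433 and 0.364 without AMPKβ1-/- PF replicate 1 or 3, and to 0.0728 without WT PF replicate 2. The log2 change itself stayed between 0.85 and 1.02 in all 12 such fits. With the GC and length offset it was 0.51 (edgeR adjusted p = 0.212). Exons of 4732440D04Rik overlap those of Rb1cc1 on the other strand. The library kit keeps strand, but the sources used here do not say whether the counting used it.

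Among the VPS34 genes, Pik3c3 encodes the lipid kinase itself. It was at 55.4, 59.4 and 53.0 CPM in WT vehicle and 63.0, 59.5 and 65.7 CPM in WT PF libraries, and at 53.0, 56.0 and 62.4 CPM in AMPKβ1-/- vehicle and 54.4, 52.5 and 55.1 CPM in AMPKβ1-/- PF libraries. The WT PF libraries were all higher than the WT vehicle libraries, with 59.5 next to 59.4 CPM. The log2 change was 0.17 in WT (SE 0.085, edgeR adjusted p = 0.175) and -0.080 in AMPKβ1-/- cells (SE 0.085, adjusted p = 0.982).

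Pik3r4, on chr9:105642978-105687657, encodes VPS15, the regulatory partner that holds the kinase in the complex. It was at 71.6, 68.0 and 89.5 CPM in WT vehicle and at 62.9, 62.1 and 61.2 CPM in WT PF libraries. AMPKβ1-/- libraries had 71.4, 67.6 and 63.5 CPM on vehicle and 63.4, 62.3 and 71.1 CPM on PF. The WT groups were separate, with WT vehicle replicate 3 far above the other two. The log2 change in WT was -0.30 (SE 0.10), which narrowly missed the threshold at an edgeR adjusted p of 0.0536, and in AMPKβ1-/- cells it was -0.042 (SE 0.10, adjusted p = 0.985). Without WT vehicle replicate 3 the WT value was -0.17 (adjusted p = 0.204), and without WT vehicle replicate 2 or AMPKβ1-/- vehicle replicate 1 the adjusted p was 0.0252 or 0.0492. The genotype change of Pik3r4, -0.18 (SE 0.10, adjusted p = 0.137), likewise passed only without WT vehicle replicate 2 (0.0497).

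Counts of Pik3c3 relative to Pik3r4, the core pair, gave 0.747 ± 0.142 in WT vehicle, 1.01 ± 0.059 in WT PF, 0.851 ± 0.121 in AMPKβ1-/- vehicle and 0.824 ± 0.044 in AMPKβ1-/- PF libraries (SD, n = 3). The WT PF libraries, from 0.958 to 1.07, were above all WT vehicle libraries, whose highest was 0.874. The AMPKβ1-/- groups overlapped. This ratio too carries the library's GC trend, since the GC contents differ (47.9% and 52.8%). With the GC and length offset the WT PF changes went from 0.17 to 0.057 for Pik3c3 and from -0.30 to -0.15 for Pik3r4.

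Becn1, on chr11:101285952-101302286, encodes Beclin 1, the subunit through which BCL2 proteins and AMBRA1 act on the kinase. WT libraries had 106, 101 and 106 CPM on vehicle and 113, 116 and 115 CPM on PF. AMPKβ1-/- libraries had 109, 109 and 117 CPM on vehicle and 102, 107 and 105 CPM on PF. PF libraries were thus all higher in WT and all lower in AMPKβ1-/- cells. The changes were 0.13 in WT (SE 0.068, edgeR adjusted p = 0.171) and -0.093 in AMPKβ1-/- cells (SE 0.068, adjusted p = 0.982), and their difference of 0.23 (SE 0.096) had an unadjusted p of 0.0319 and an adjusted p of 0.307. Genotype on vehicle gave 0.095 (SE 0.068, adjusted p = 0.24), with no overlap between the groups. Cntd1, whose exons overlap on the other strand, had at most 5 counts in any library.

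Atg14 and Uvrag encode the alternative partners that direct the complex to autophagosome formation and to endosomes. Atg14, on chr14:47540893-47570649, was at 32.3 to 35.5 CPM in WT vehicle, 33.5 to 35.3 in WT PF, 30.3 to 32.8 in AMPKβ1-/- vehicle and 33.7 to 34.9 in AMPKβ1-/- PF libraries. Uvrag, on chr7:98885021-99141141, was at 100.1 to 103, 93.9 to 102, 101 to 107 and 91.8 to 97.6 CPM in the same groups. In AMPKβ1-/- cells the PF libraries did not overlap the vehicle libraries, with Atg14 higher and Uvrag lower, yet the log2 changes of 0.14 and -0.14 had edgeR adjusted p of 0.982 and 0.982. In WT cells the values were 0.028 (SE 0.085, adjusted p = 0.825) and -0.067 (SE 0.069, adjusted p = 0.501). No comparison called either gene.

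Groups without overlap were counted over all 10 genes for comparison with the background. With PF in WT, 2 of 10 were higher in every library (Becn1 and Pik3c3; 14.2% of all genes) and 3 of 10 lower (Ulk1, Atg101 and Pik3r4; 18.1%). With PF in AMPKβ1-/- cells, 3 of 10 were higher (Ulk2, Rb1cc1 and Atg14; 8.21%) and 2 of 10 lower (Becn1 and Uvrag; 6.28%). By genotype on vehicle, 3 of 10 were higher (Ulk2, Rb1cc1 and Becn1; 30.9%) and 2 of 10 lower (Atg13 and Atg101; 32%). The comparisons of WT with PF and of genotype share the 3 WT vehicle libraries, and those of AMPKβ1-/- PF and of genotype share the 3 AMPKβ1-/- vehicle libraries.

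Whether the response to PF depended on genotype was tested directly by an interaction term. It called none of the 10 genes, and 45 of 10822 genes or 0.416% overall. At an unadjusted p below 0.05 it held Rb1cc1 (-0.95, adjusted p = 0.15) and Becn1 (0.23, adjusted p = 0.307), and neither passed after adjustment. Of all 10822 tested genes, 687 were positive and 863 negative at that limit. DESeq2 and limma-voom also called 0 of 10.

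The fold changes of the 10 genes for PF and for genotype went with the GC content of their transcripts, as did those of all genes. Across the 10786 tested genes with a GC value, Spearman's rho between GC content and log2 change was -0.71 for PF in WT, -0.45 for PF in AMPKβ1-/- cells and -0.76 for genotype. Over the 10 genes it was -0.81, -0.54 and -0.88. For the interaction it was -0.50 over all genes and -0.25 over the 10. Genes share the same 12 libraries and are not independent replicates, so these are descriptions without a test. Within the libraries, the slope of log2 level on GC content, per 10 percentage points and relative to the mean of all 12 libraries, was 0.36 to 0.72 in WT vehicle, -0.051 to 0.37 in WT PF, -0.36 to -0.10 in AMPKβ1-/- vehicle and -0.51 to -0.33 in AMPKβ1-/- PF libraries. The groups thus differed in this slope, and what set it was not tested.

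**Figure D3:**
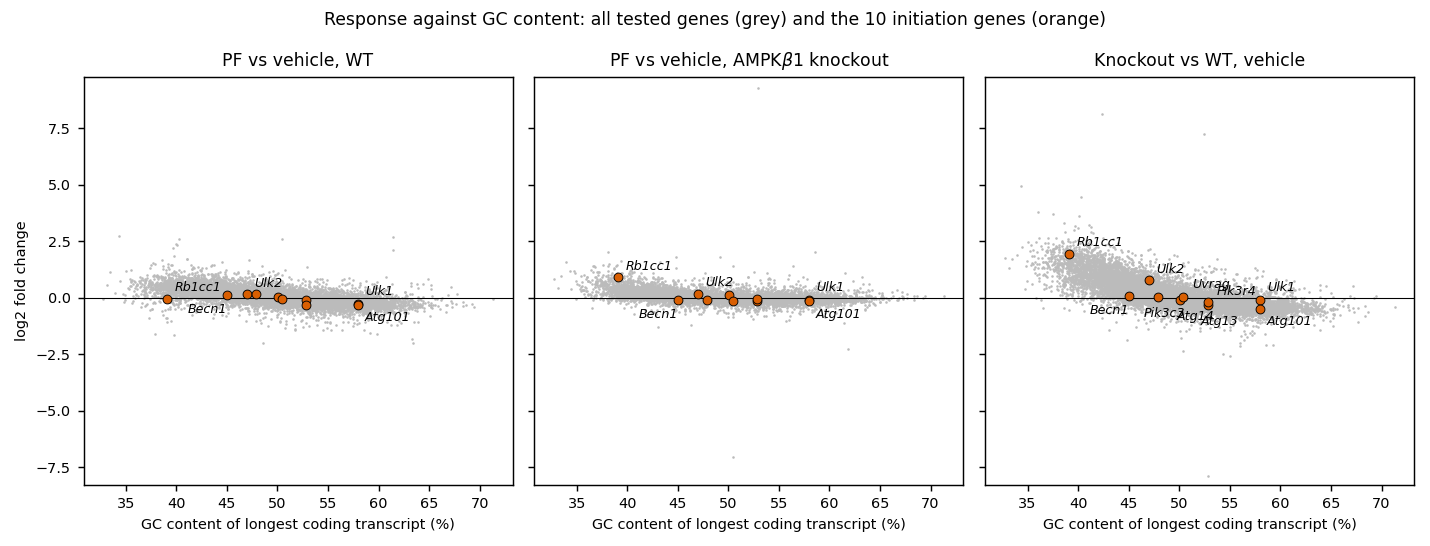
Log2 fold change (y axis) against the GC content of the longest coding transcript in percent (x axis) for all tested genes (grey) and the 10 initiation genes (orange) in 3 comparisons. In the genotype panel Rb1cc1, at 39.1% GC and 1.96, lies on the low-GC side of the grey points. Atg101, at 58.0% GC and -0.48, lies on the high-GC side, as does Ulk1, at 58.0% GC and -0.10.

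Removing each library's trend in GC content and transcript length with an offset, and fitting again, changed most of the calls. Ulk2 kept its genotype call at 0.38 (SE 0.078, edgeR adjusted p = 0.00116). Rb1cc1 fell to 0.45 (SE 0.19, adjusted p = 0.0771), and Atg13 and Atg101 to -0.11 and -0.012 (adjusted p = 0.167 and 0.909). Becn1 turned to -0.48 (SE 0.10, adjusted p = 0.00176). The 5 coding transcripts of Becn1 range from 45.0% to 60.8% GC and the longest, at the low end, is also the principal one, so no other transcript was tried. For PF, Rb1cc1 in AMPKβ1-/- cells became 0.51 (SE 0.13, adjusted p = 0.212), Atg101 in WT -0.13 (adjusted p = 0.26) and Ulk1 in WT 0.012 (adjusted p = 0.942). The interaction of Rb1cc1 was the same with the offset, -0.95 (SE 0.26, adjusted p = 0.0808).

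**Figure D4:**
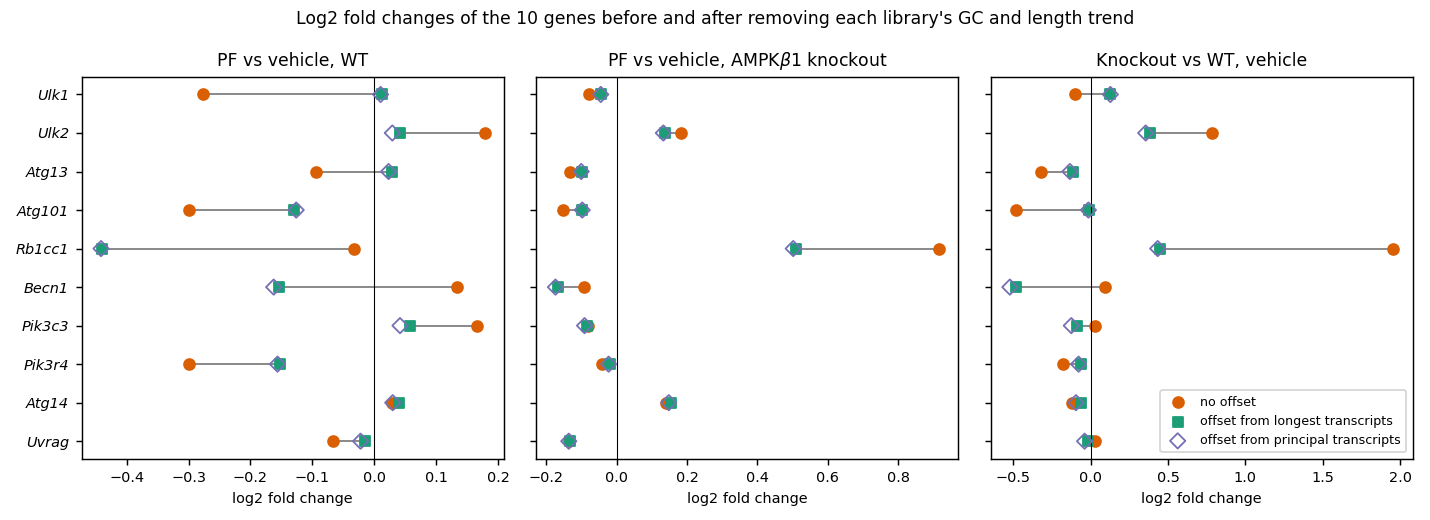
Log2 fold change (x axis, scaled separately in each panel) of the 10 genes (y axis) without an offset (circles) and after removing each library's GC and length trend from longest transcripts (squares) or principal transcripts (open diamonds). In the genotype panel Rb1cc1 moves from 1.96 to 0.45 and Ulk2 from 0.79 to 0.38, and Becn1 crosses 0.

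Over the 12 libraries, the genes whose log2 CPM tracked Ulk2 most closely were Nr1d2, Usp34 and Tlr4 (Pearson r = 0.997, 0.994 and 0.994). For Pik3r4 they were Camta2, Ube4b and Kif21b (r = 0.956, 0.942 and 0.939). These 2 members had the highest and the lowest fitted log2 change with PF in WT, 0.18 and -0.30, but neither passed the test, and Pik3c3 at 0.17 and Atg101 at -0.30 lay within a standard error of them. The 3 genes that tracked Ulk2 had a GC content of 39.4% to 41.8%, and those that tracked Pik3r4 51.8% to 59.0%. All points share the libraries and their GC slopes.

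Partners and regulators of the 2 complexes were followed as a list of 24 genes, of which 22 were tested. With PF in WT cells 4 were called higher and 1 lower, where 6.99% and 8.95% of all tested genes were, with a median log2 change of 0.0015 against 0.0048 over all tested genes. C9orf72, a Rab regulator that binds the ULK1 complex, changed by 0.52 (SE 0.11, edgeR adjusted p = 0.00919), and Wac, an adaptor needed for autophagy under starvation, by 0.46 (SE 0.13, adjusted p = 0.0317). Rubcn, the Rubicon subunit that restrains UVRAG-VPS34, was lower at -0.24 (SE 0.077, adjusted p = 0.0444), a call kept in 7 of 23 alternatives and lost, among others, with DESeq2 size factors (0.0561), no filter (0.0618) and library size alone (0.108). In vehicle-treated AMPKβ1-/- cells, where 29.7% of all tested genes were higher and 30% lower, 7 were higher, led by Trim5 (1.37) and Cul3 (1.36), and 4 lower, led by Rubcnl (-0.60) and Pink1 (-0.50), on the log2 scale. With the GC and length offset these counts were 0 and 9 for genotype, and 0 and 0 for PF in WT. For genotype 34.2% of all tested genes were called with the offset, both directions together. Across alternatives other than leaving out 1 library, the share for PF in WT ran from 4% to 18.3%. Shares by direction with the offset are not given here. None was called for PF in AMPKβ1-/- cells or for the interaction, where 0 and 2 had an unadjusted p below 0.05.

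The list of upstream kinases also held kinase subunits and partners, such as Prkab1 and Cab39, and not all of its genes act on ULK1 itself. It had 18 genes, with 17 tested. PF in WT, against the same background of 6.99% and 8.95%, called 2 higher, Mapk8 (JNK1, 0.84) and Cab39 (MO25, a partner of LKB1, 0.62), and 3 lower, among them Stk11 (LKB1, -0.34) and Dapk1 (-0.29), and the median was -0.18. Genotype called 5 higher and 7 lower, the latter including the knocked-out gene itself, against 29.7% and 30% of all tested genes. They were led by Mapk8 (1.28), Cab39 (1.11), Prkab1 (-2.57) and Akt1s1 (PRAS40, -0.58). With the offset 3 were higher and 3 lower, where 34.2% of all tested genes were called in both directions together. Again none was called for PF in AMPKβ1-/- cells or the interaction, where 0 and 1 had an unadjusted p below 0.05. The numbers over all tested genes at that limit were those given above.

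The list genes named for PF in WT, here and for the later steps of autophagy, number 14. Of these, 1, 3, 1 and 0 kept their call without WT vehicle replicate 1, WT vehicle replicate 3, WT PF replicate 2 and WT PF replicate 3, respectively, and 2 did so in a fit of the 6 WT libraries alone. The log2 changes moved less than the calls in several of them, such as Stk11. It was -0.33, -0.30, -0.33 and -0.30 without those 4 libraries in turn, against -0.34 with all. Others moved more, such as Mapk8, at 0.627, 0.999, 0.864 and 0.615 against 0.84. Atg4a was likewise at 0.525, 0.786, 0.690 and 0.578 against 0.72. With the GC and length offset 1 of 14 kept its call, Cab39, and of the 20 named for genotype 8 did so. Cul3, Mapk8 and Rab1a turned to -0.067, -0.031 and -0.091 there, and with the offset from principal transcripts they were -0.097, 0.38 and -0.27 (adjusted p = 0.473, 0.138 and 0.0267). Rubcnl was lost for genotype without WT vehicle replicate 3, the only such case among the 20.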

How the data were processed

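RNA of BMDMs was sequenced as 12 libraries with a directional kit. Per the labels and the study's methods, the authors trimmed reads with Trim Galore, quantified transcripts with Salmon and analysed genes with DESeq2. They deposited estimated counts per gene symbol, rounded to whole numbers (12960 genes). Tool versions, genome build, annotation and gene filter are not given in the sources used here, and gene-level values do not show isoforms. Columns name the group but not the sample, so each was used as a replicate of its group.

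Counts were filtered with filterByExpr (10822 genes), scaled by TMM and fitted as 4 group means in 1 model over all 12 libraries (R 4.3.3, edgeR 4.0.16, robust quasi-likelihood test). P-values were adjusted by Benjamini-Hochberg over all tested genes, with calls at adjusted p below 0.05, and a stricter rule added a log2 change beyond 0.8. Each standard error and 95% interval is an approximation, computed back from F and the log2 change. Levels are CPM at TMM-scaled depth. Depth was 8935609 to 14358180 counts per library, and replicate pairs differed by 2.19 to 18.1 times counting noise, so none was treated as a duplicate. The fit was tested on simulated data.

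GC content, length and position came from GENCODE M21 (GRCm38), used as annotation only, with 12703 symbols matched directly, 194 by an older symbol and 63 not. Alternatives were other scalings, filters, DESeq2 1.42.0, limma-voom 3.58.1, a GC and length offset (natural splines with 5 degrees of freedom), a replicate block, the contrast's libraries alone and leaving out each library. An offset from APPRIS principal transcripts was added after seeing the data.

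The members, gene lists and tests were chosen with earlier results of these data known. Named were all 10 members, Prkab1, up to 2 higher and 2 lower genes of each list for PF in WT and for genotype, and the 3 genes most correlated with each of the members with the highest and lowest fitted log2 change for PF in WT, whether or not called. Promoter sequences were not used.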

Additional observations from a re-analysis of the deposited data

Results flagged for a closer look

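Becn1 was the only member whose PF libraries were all on one side of vehicle in WT (higher) and all on the other side in AMPKβ1-/- cells (lower). Taken singly, 14.2% of all tested genes were higher in every WT PF library and 6.28% lower in every AMPKβ1-/- PF library. How many genes showed both was not counted, so whether Becn1 is unusual in this is not known. The log2 changes were 0.13 and -0.093, and their difference was 0.23 (SE 0.096, edgeR interaction, unadjusted p = 0.0319, adjusted p = 0.307 over 10822 genes). Over the alternatives the difference ranged from 0.012 to 0.29 and the adjusted p from 0.167 to 0.989, with the low end under the GC and length offset from principal transcripts. Groups of 3 libraries were not tested for a single library that stands apart.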

How the results depend on the processing

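Of 910 recomputed log2 changes of the 10 genes, 825 kept direction and side of the threshold, 36 lost a call, 8 gained one and 41 changed sign, and for those given here the cause was not tested. For PF in WT the count of called members, 1, was 0 with DESeq2 size factors, upper quartile scaling, no filter, DESeq2, either GC and length offset, the contrast's libraries alone or the 0.8 limit, and 0 to 2 when 1 library was left out; with library size alone it was 1, but Becn1 in place of Atg101. For PF in AMPKβ1-/- cells the count of 1 became 0 with upper quartile scaling, library size alone, at least 10 counts in every library, either offset or the replicate block, and 0 to 1 without 1 library. The interaction stayed at 0 in every fit. The genotype count of 4 was 2 with either offset (Ulk2 and Becn1), 1 with the 0.8 limit, 6 with library size alone (Becn1, Pik3c3 and Uvrag gained, Atg13 lost) and 4 to 5 without 1 library. Over all genes, the share called for PF in WT, 15.9%, ran from 3.17% without WT PF replicate 3 to 29.7% without WT PF replicate 1 and was 4% from the contrast's libraries alone. For genotype the share, 59.7%, ran from 34.2% with the offset to 61% with at least 10 counts in every library. Library size alone lies within that range. The share was 0% to 0.58% against 0.0554% for PF in AMPKβ1-/- cells, and 0.0458% to 2.6% against 0.416% for the interaction.

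Signs changed as follows. With library size alone, which moved the median of all genes by 0.21 for genotype, Rb1cc1 and Uvrag became 0.044 and 0.013 for PF in WT, Ulk2 0.058 for the interaction, and Ulk1, Pik3r4 and Atg14 0.11, 0.031 and 0.093 for genotype. The Ulk2 interaction, -0.0035, became 0.030, 0.0051 and 0.00074 with upper quartile scaling, no filter and at least 10 counts. With the offset, and in the same order with that from principal transcripts, Ulk1, Atg13 and Becn1 became 0.012, 0.029 and -0.15 (0.010, 0.023 and -0.16) for PF in WT, Ulk1 0.058 (0.055) for the interaction, and Ulk1, Becn1, Pik3c3 and Uvrag 0.13, -0.48, -0.085 and -0.019 (0.13, -0.52, -0.13 and -0.040) for genotype. Without 1 library, Rb1cc1 and Atg14 ranged from -0.17 to 0.23 and from -0.0049 to 0.063 for PF in WT, Ulk1 from -0.15 to 0.027 for PF in AMPKβ1-/- cells, Ulk2 and Atg13 from -0.15 to 0.089 and from -0.032 to 0.089 for the interaction, and Ulk1 and Pik3c3 from -0.21 to 0.011 and from -0.039 to 0.077 for genotype.

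Whether same-numbered columns belong together was not tested. Their deviations correlated at 0.32, -0.0063 and 0.12 in WT, with 1 of 3 correlating best with its own number. In AMPKβ1-/- cells the values were -0.17, -0.13 and 0.077, again with 1 of 3. Between the vehicle groups they were 0.22, 0.25 and -0.11, with 2 of 3. Replicate 1 had the highest GC slope of its group in WT vehicle (0.72), WT PF (0.37) and AMPKβ1-/- vehicle (-0.10) libraries. In AMPKβ1-/- PF libraries replicate 1 had the lowest slope (-0.51). With a replicate block Rb1cc1 lost its call for PF in AMPKβ1-/- cells (adjusted p = 0.0963), and no other member's call changed. With 21 to 37 counts of Rb1cc1 in WT vehicle libraries, its WT changes are the least precise of the 10.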

Other observations

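Later steps of autophagy were followed in 3 further lists. The LC3 and ATG12 conjugation list, the enzymes that attach LC3 to membranes, had 17 tested genes, of which PF in WT called 4 higher and 0 lower (5 at an unadjusted p below 0.05), where 6.99% and 8.95% of all tested genes were called, with a median log2 change of 0.21 against 0.0048 over all tested genes. Atg4a, an LC3-processing protease, changed by 0.72 (SE 0.21, edgeR adjusted p = 0.0336) and Atg12, the ubiquitin-like partner of ATG5, by 0.43 (SE 0.13, adjusted p = 0.0384). With the GC and length offset 2 other genes were called higher and the median was 0.019. Atg4a and Atg12 were not called there, at 0.29 and 0.11 (edgeR adjusted p = 0.284 and 0.431). Across alternatives other than leaving out 1 library, 4% to 18.3% of all tested genes were called for PF in WT. In AMPKβ1-/- vehicle cells, where 29.7% of all tested genes were higher and 30% lower, 6 were higher, led by Atg4a (1.02) and Atg4c (0.98), and 8 lower, led by Tecpr1 (-0.82) and Atg4d (-0.71). With the offset the counts were 1 and 8, where 34.2% of all tested genes were called in both directions together. For the interaction 1 was called higher with the offset, against 0 without, where 1.67% and 0.416% of all tested genes were called.

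The list for ATG9, ATG2, WIPI proteins and the membrane stage, which supply lipid to the growing membrane, had 17 tested genes, with 3 called higher and 3 lower for PF in WT (6.99% and 8.95% of all tested genes) and 0 in either direction with the offset. Rab1a (0.65), Tmem41b (0.59), Atg2a (-0.45) and Atg9a (-0.36) led them, on the log2 scale. Genotype called 3 higher (29.7% of all tested genes), led by Trappc8 (1.18) and Rab1a (0.80), and 7 lower (30%), led by Atg9b (-1.07) and Rab1b (-0.49). With the offset the counts were 2 and 5, against the same 34.2% in both directions together. Rab1a turned to -0.091 with the offset (edgeR adjusted p = 0.457) and to -0.27 with that from principal transcripts (adjusted p = 0.0267). The list for BECN1 binding and PI3P turnover had 17 tested genes, with Mtmr2, a PI3P phosphatase, alone called higher for PF in WT (0.39, SE 0.099, adjusted p = 0.0188) and 0 lower. With the offset Mtmr2 was 0.12 (edgeR adjusted p = 0.404), and 1 other gene was called higher and 0 lower. The share of all tested genes lay within the 4% to 18.3% given above. Genotype called 6 higher, led by Pik3c2a (2.58) and Mtm1 (1.75), and 5 lower, led by Bcl2l1 (BCL-XL, -0.91) and Vac14 (-0.50), against the same 29.7% and 30%. With the offset the counts were 2 and 4, again against 34.2% in both directions together. Mtm1 was then 0.40 (edgeR adjusted p = 0.213) and Vac14 -0.13 (adjusted p = 0.101), and Pik3c2a kept its call in all 23 alternatives at 1.02 to 2.82. No gene of the 3 lists was called by edgeR for PF in AMPKβ1-/- cells or, without the offset, for the interaction. At an unadjusted p below 0.05 the conjugation, ATG9 and BECN1 lists had 0, 0 and 1 genes for the former and 1, 4 and 2 for the latter. Over all tested genes, 464 were higher and 75 lower for the former, and 687 positive and 863 negative for the latter.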
